A study of Mus musculus with 5 samples.

Results

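MacroH2A1.2 is a splice variant of the histone macroH2A1, which replaces H2A in a share of nucleosomes and carries a large non-histone domain. In many cell types macroH2A marks broad stretches of weakly transcribed chromatin, and it is usually poor at the starts of highly transcribed genes. The regions described here are those that nevertheless contained the transcription start of a protein-coding gene. They were found by merging the enriched regions of all samples whenever they shared 1 bp, and keeping the autosomal merged regions that held the start of a protein-coding transcript of the GENCODE M21 basic annotation. Of 61942 autosomal merged regions, 2595 did so (4.19%). They covered 37.4 Mb of 471.7 Mb and held the starts of 2609 of 20755 autosomal protein-coding genes (12.6%). The rule used positions only and no height of enrichment.

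The chromatin came from 3T3-L1 cells, a mouse fibroblast line that can be turned into adipocytes in culture, carrying a lentivirus for macroH2A1.2 fused to GFP. Pre-adipocytes (2 samples) were cells before induction. Mature adipocytes (2 samples) had received a cocktail of IBMX, dexamethasone and insulin for 60 h, followed by insulin medium. The name follows the paper, which also reports that cells with this transgene held less lipid after differentiation than GFP control cells. How far these samples had differentiated was not measured here. All 4 samples expressed the tagged histone and were immunoprecipitated with the same anti-GFP antibody, so the regions report the tagged protein only. The paper reports that this transgene markedly lowered the cells' own macroH2A1.2. A single library made without antibody served as control for every sample, and the 4 region lists therefore share it. Regions were called in each sample separately, and a region is a stretch joined from neighbouring enriched windows in steps of 200 bp. Fold enrichment stands for ChIP over control reads after scaling for library size. Values per sample are given throughout in the order pre-adipocyte replicate 1, pre-adipocyte replicate 2, mature adipocyte replicate 1 and mature adipocyte replicate 2. In this order, the ChIP libraries were 1.202, 0.549, 1.23 and 1.21 times the size of the control library, which makes pre-adipocyte replicate 2 the shallowest. The study describes the replicates as biological duplicates, and the labels name no separate cultures.

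To show what the covered starts look like at the DNA level, 30 bases upstream of the start, from position -40 to -11, are printed for genes on which the results turn. They were taken from RefSeq promoter sequence (GRCm38.p6, the assembly of mm10), 5′ to 3′ on the strand of the gene. Capitals mark the TATAAA letters and each CG dinucleotide. The first 11 genes are all those named here whose window could be read and whose start was inside a region of all 4 samples.
Adamtsl2 (chr2:27079339-27079368, plus strand): gcctgacagcTATAAAggcagctgCGgcca
Crhr2 (chr6:55133027-55133056, minus strand): cTATAAAtaacctggaggCGgcCGactgtg
Hoxa9 (chr6:52227381-52227410, minus strand): aaggaaggggaaaaaaagtggggtgataga
Ipcef1 (chr10:7023196-7023225, minus strand): gaaaatctaataacatcctttattatattg
Krtap1-5 (chr11:99581027-99581056, minus strand): gcttgactaTATAAAaggccccatgctcag
Krtap3-1 (chr11:99566641-99566670, minus strand): gtaTATAAAagccagggcagaCGacagagc
Lcn8 (chr2:25653078-25653107, plus strand): gcacactctccaaatataagctcccacctt
Olfr101 (chr17:37300495-37300524, minus strand): actacctctcaaaatattttggttatgaaa
Olfr96 (chr17:37225051-37225080, plus strand): ttagcctggtcagtcttagaattgcaacag
Tcp11 (chr17:28079775-28079804, minus strand): ttagtctctcctctgtggccaCGCGgggtc
Zfp663 (chr2:165368747-165368776, minus strand): ggtccctagcatctctgctgCGcatgtgca
The next 4 were inside a region of both mature samples and of no pre-adipocyte sample.
Pparg (chr6:115422026-115422055, plus strand): cctttttcctttaaccaaccaatcttttgc
Gata3 (chr2:9878611-9878640, minus strand): gCGgatgacactagaacctccttaagttgc
Nfam1 (chr15:83023149-83023178, minus strand): cacacctagctgttgctaggtaactgtggg
Il20ra (chr10:19712547-19712576, plus strand): gggctccatCGccCGggtctCGctgttgca
The next 4 were inside a region of both pre-adipocyte samples and of no mature sample.
Trpv6 (chr6:41636416-41636445, minus strand): ggggcctgtctctttaaatctcaggtaatt
Cldn6 (chr17:23679325-23679354, plus strand): tgaCGtcattgagactttaagaccccttgc
Cdhr2 (chr13:54701423-54701452, plus strand): agaagaggtggagatggtgccaaagtctgc
Kel (chr6:41704336-41704365, minus strand): gaggcctgagtgttccctcactgataagca
The last 9 come from the genes that the study singled out from its adipogenesis array. They are those with a window whose start was in no region of any sample.
Cdk4 (chr10:127063495-127063524, plus strand): CGggttgcccactgCGcaagggtgaagatc
Cdkn1b (chr6:134920361-134920390, plus strand): CGagaccaatggagctcctcctctgtttaa
Egr2 (chr10:67537829-67537858, plus strand): agacctgcccataaatactcCGagcctaac
Fasn (chr11:120824558-120824587, minus strand): aggccaCGcccctCGgttcCGCGCGCGcta
Jun (chr4:95052233-95052262, minus strand): tcatgggctatttttagggattgactggta
Lmna (chr3:88493323-88493352, minus strand): gggagcagcacctcagtcccctgcccaacc
Retn (chr8:3655730-3655759, plus strand): gggccagggtacttattatccaaggcagga
Sirt1 (chr10:63339046-63339075, minus strand): gtgaCGgggtttaaatctccCGcagcCGag
Sirt2 (chr7:28766712-28766741, plus strand): attgtaCGaaagCGgttatggggatCGcat
Among 15199 such windows of all autosomal protein-coding genes, TATAAA was present in 2.85% on the gene's own strand and in 3.34% on either strand (as TTTATA on the opposite one), and CG in 68.9%. Of the 11 printed windows covered in all samples, 4 held TATAAA. The printed windows belong to named genes and are too few to compare the groups.

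Protein-coding starts lay in a trough of macroH2A1.2 coverage in every sample. Over all 39576 distinct starts, 5.23%, 1.88%, 4.93% and 4.64% were inside a region of the sample itself. At 20 kb upstream, the same samples covered 12.8%, 5.71%, 12.6% and 11.98% of positions, and at 20 kb downstream 7.42%, 3.21%, 7.45% and 7.24%. Coverage at the start was thus 0.518, 0.423, 0.493 and 0.483 of the mean of both flanks. The fall towards the start was steeper from the upstream side. At 1 kb upstream 8.92%, 3.71%, 8.87% and 8.34% of positions were covered, against 5.67%, 2.32%, 5.74% and 5.31% at 1 kb downstream. The ends of transcripts were covered in 5.66%, 2.45%, 5.91% and 5.84%.

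The ratio of the start to its flanks did not separate the conditions. It was 0.470 ± 0.0675 (SD, n = 2) before differentiation and 0.488 ± 0.00758 (SD, n = 2) after it (exact permutation test, two-sided, p = 1; the smallest p that 2 samples against 2 allow is 0.333). The mature values lay between those of the pre-adipocyte replicates.

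**Figure D1:**
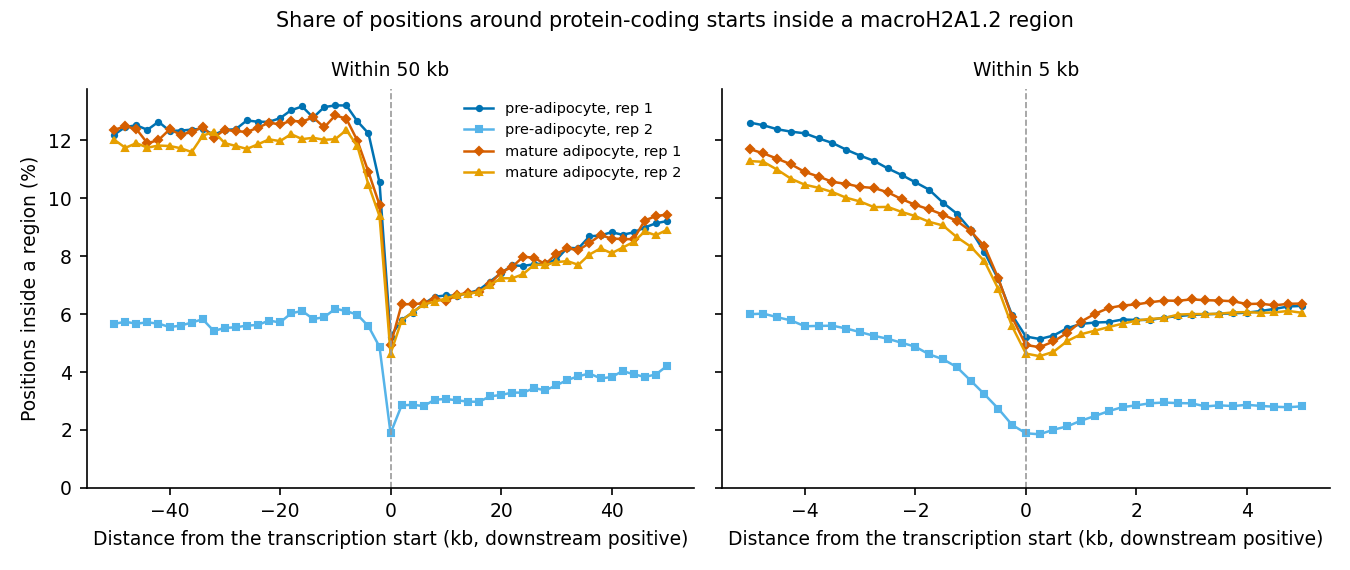
Share of positions inside a macroH2A1.2 region (%, vertical axis) by distance from all autosomal protein-coding transcription starts (kb, horizontal axis, downstream positive), within 50 kb on the left and 5 kb on the right, with a line for each sample. Each line has its low point at or just downstream of the start, at 5.23%, 1.88%, 4.93% and 4.64% at the start itself, and replicate 2 of pre-adipocytes runs lowest throughout.

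Somewhat more of a region lay upstream than downstream of the start it covered. The median distance from a covered start to the nearest edge of its own sample's region was 1706 bp, 844.5 bp, 1146 bp and 1035.5 bp. The larger part of the region was upstream for 56.2%, 54.96%, 55.7% and 57.2% of covered starts. Whole transcripts were inside the region for 13.4%, 9.25%, 8.81% and 8.28% of them. Among the merged regions, 266 starts were inside by less than 200 bp, whereas 709 starts missed a region by 200 bp or less. Of these near misses, 558 had the region on the upstream side only, 147 on the downstream side only, and 4 on both sides.

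Regions that covered a start were a small part of each sample's regions. There were 1400, 532, 1370 and 1294 of them, or 3.87%, 1.39%, 2.33% and 2.14% of the sample's autosomal regions. They were longer than the rest, with medians of 7800, 3800, 5200 and 4800 bp against 5800, 3000, 3600 and 3400 bp over all autosomal regions of the same sample. Among merged regions, the share that held a start rose with length, from 1.09% under 2 kb to 4.52% from 5 to 10 kb and 14.9% over 40 kb. Their median fold enrichment was 1.605, 1.93, 1.74 and 1.78, beside 1.61, 2.01, 1.79 and 1.82 over all regions. The median region over a start held 252, 70, 187.5 and 171.5 ChIP reads. Control reads per kb had medians of 17.0, 17.5, 17.2 and 17.3, close to those over all regions (17.4, 18.2, 17.1 and 17.3).

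The number of genes with a covered start differed more between the pre-adipocyte replicates than between the conditions. It was 1375 and 542 in pre-adipocytes and 1338 and 1254 in mature adipocytes, that is 6.62%, 2.61%, 6.45% and 6.04% of all genes. The means were 958.5 ± 589 (SD, n = 2) and 1296 ± 59.4 (SD, n = 2), and the difference did not pass (exact permutation test, two-sided, p = 1). The low count belonged to the shallowest library, although its autosomal regions (38232) outnumbered those of replicate 1 (36165). The mature samples had 58780 and 60593. Without the shallowest library the difference turned, since the remaining pre-adipocyte sample (1375 genes) lay above the mature mean of 1296. The median fold enrichment over starts was 1.77 ± 0.231 (SD, n = 2) before differentiation and 1.76 ± 0.0267 (SD, n = 2) after it (exact permutation test, p = 1).

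A merged region was usually backed by several samples, whereas the start inside it was not. Of the 2595 merged regions, 554 were called in 1 sample, 455 in 2, 494 in 3 and 1092 in all 4 (42.1%). Over all autosomal merged regions 20.6% were called in all 4 samples. The regions over starts had a median merged length of 9000 bp and the others 4400 bp. From 2 to 5 kb, 4.84% of the regions over starts and 2.33% of the others were called in all samples. Within longer classes the shares were closer. A merged region also grows with the number of samples that it joins, so length and number of samples cannot be told apart here. From 5 to 10 kb, 23.7% of the regions over starts and 21.6% of the others were called in all samples, and from 10 to 20 kb 64.1% and 62.4%. By contrast, 2330 of the 4004 covered starts (58.2%) were inside a region of 1 sample only, 944 of 2, 534 of 3 and 196 (4.90%) of all 4. Even among the 1801 starts in merged regions called in every sample, 10.9% were covered by every sample's own region, and 38.6% by 1 sample's.

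**Figure D2:**
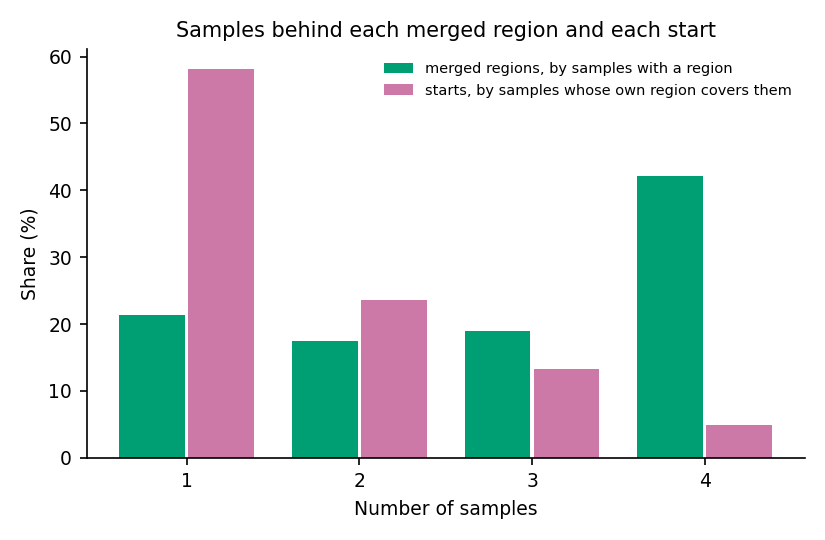
Shares (%, vertical axis) by number of samples (horizontal axis) of the 2595 merged regions, by how many samples had a region there, and of the 4004 covered starts, by how many samples had a region over the start itself. Merged regions peak at 4 samples (42.1%) and starts at 1 sample (58.2%).

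Samples shared part of their genes. Replicates 1 and 2 of pre-adipocytes had 329 genes in common, 23.9% of the first and 60.7% of the second. The mature replicates had 680 in common, 50.8% and 54.2% of theirs. Replicate 1 of pre-adipocytes shared 613 genes with replicate 1 of mature adipocytes (44.6% and 45.8%) and 603 with replicate 2 (43.9% and 48.1%). These lists share the control library. Genes covered in all 4 samples numbered 172 (0.829% of all genes). Those covered in both mature samples and neither pre-adipocyte sample numbered 214 (1.03%), and those covered in both pre-adipocyte samples and neither mature sample 68 (0.328%). These counts take all starts of a gene together. Judged by single starts, the same patterns were met in 155, 235 and 68 genes. Genes covered in a single sample were more numerous, with 511, 118, 435 and 372. At the level of merged regions, 231 of the regions over starts were called in both mature samples alone (8.90%, against 12.9% of all merged regions) and 31 in both pre-adipocyte samples alone (1.19% against 1.62%).

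Covered starts were poor in CG dinucleotides. Mammalian promoters fall broadly into those within CpG islands, which are rich in CG and common at housekeeping and developmental genes, and CpG-poor ones, common at tissue-restricted genes. The ratio of observed to expected CG was taken over the first 200 transcribed bases. Its median was 0.612 at starts covered in no sample, 0.436 at those covered in 1 sample, 0.333 in 2, 0.324 in 3 and 0.284 in all 4. GC content fell less, from 58.0% at uncovered starts to 52.25% at starts covered in all samples. At least 10 CG dinucleotides were present in 51.0% of uncovered starts and in 10.7% of those covered in all samples. In each sample the covered starts had a lower median ratio than the uncovered ones (0.358, 0.329, 0.369 and 0.361), and covered starts were lower than uncovered ones on 19 of 19 autosomes. The samples share their control and the starts share chromosomes, so this is a description over starts and no test was made. Control reads per kb, given above, were alike over starts and over all regions, and the part of base composition in read counts was not tested.

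The share of starts covered did not fall steadily with CG. It was 8.85% in any sample where the 200 bases had no CG, 16.6% with 2 to 3, 17.5% with 4 to 6, 7.67% with 10 to 13 and 3.28% with 25 to 39. All 4 samples had their highest share with 2 to 6 CG dinucleotides. The class with 40 or more held only 65 starts, of which 1.54% were covered.

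**Figure D3:**
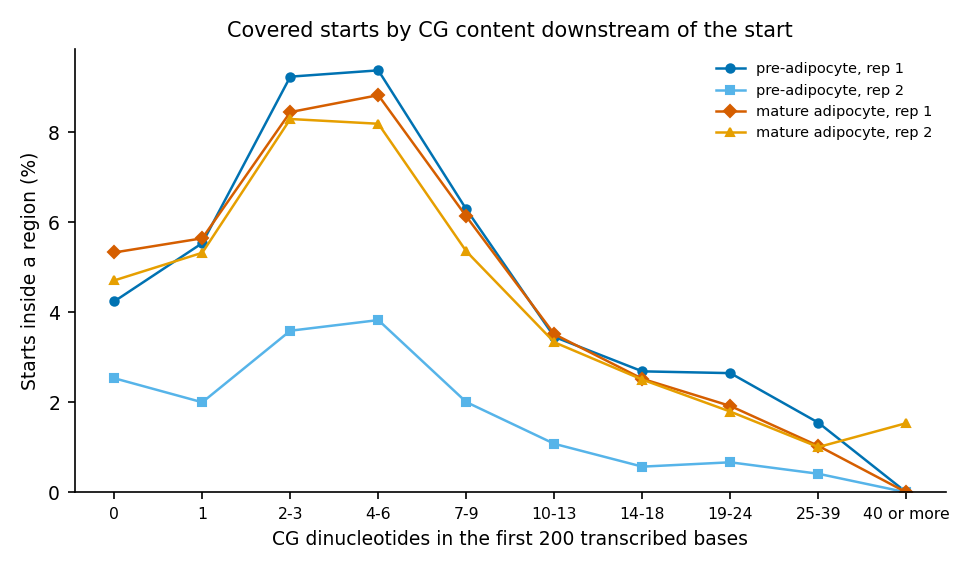
Share of starts inside a region of the sample (%, vertical axis) by the number of CG dinucleotides in the first 200 transcribed bases (horizontal axis), with a line for each sample. Coverage peaks at 2 to 6 CG in each sample and is lowest among CG-rich starts, where the last class holds 65 starts.

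Chromosomes differed widely. On chromosome 15, 29.8% of protein-coding genes had a covered start, followed by 22.3% on chromosome 17, 20.2% on chromosome 6 and 19.3% on chromosome 8. The lowest shares were 0.845% on chromosome 7, with 17 of 2012 genes, 4.35% on chromosome 12, 4.44% on chromosome 4 and 5.27% on chromosome 18. Chromosome 15 was the highest in each sample, and chromosome 7 the lowest in all but pre-adipocyte replicate 2. Chromosome 15 had 16.0%, 6.53%, 16.8% and 16.3%, and chromosome 7 had 0.348%, 0.398%, 0.249% and 0.0497%. The counts of gene families below are therefore given beside the share expected from the chromosomes on which the family lies, each gene weighted by the share of its own chromosome.

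**Figure D4:**
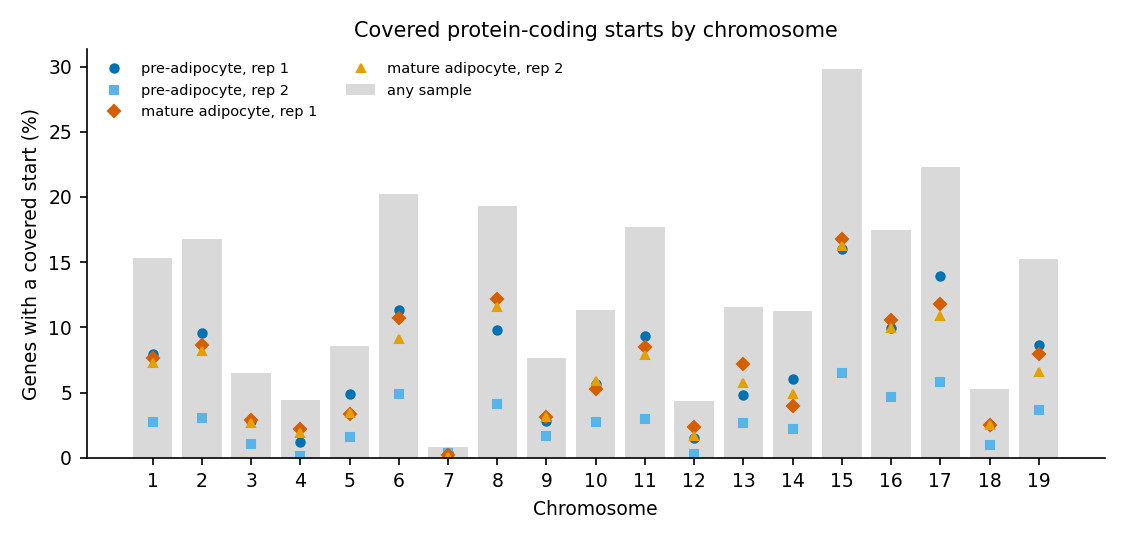
Protein-coding genes with a covered start (%, vertical axis) on each autosome (horizontal axis). Grey bars show genes covered in any sample and points the separate samples. Chromosome 15 stands highest at 29.8% and chromosome 7 lowest at 0.845%.

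Genes with the highest enrichment over a start in all 4 samples included several that are restricted to other tissues. They were ranked by their lowest fold enrichment among the samples, so that their values are a description. Adamtsl2, a secreted glycoprotein of the extracellular matrix, lay in the merged region chr2:27064401-27099000, and its start at position 27079379 had fold enrichments of 2.92, 2.36, 2.54 and 2.39. Ipcef1, an interactor of cytohesin exchange factors, had 2.55, 2.97, 2.25 and 2.36 in chr10:7018801-7033600. These 2 genes stood highest in replicate 1 and in replicate 2 of pre-adipocytes, respectively, and every sample was above 2.2. Crhr2, a receptor of the corticotropin-releasing hormone family, had 2.22, 2.22, 2.07 and 2.61 in chr6:55116201-55142000. Tcp11, a t-complex gene with a role in sperm, had 2.15, 2.39, 2.44 and 2.10 in chr17:28076001-28114400. Pgbd5, derived from a piggyBac transposase, had 2.03, 2.64, 2.16 and 2.32, at a start within the gene and downstream of its other annotated starts. The remaining members were Acsbg2, an acyl-CoA synthetase, the synaptotagmin Syt13, the Golgi protein Sys1, the epididymal lipocalin Lcn8 and Trhr2, a receptor for thyrotropin-releasing hormone. Their lowest fold enrichments were between 1.96 and 2.02, and their highest was 3.35, for Trhr2 in replicate 2 of pre-adipocytes, where 46 ChIP and 25 control reads were counted. Both pre-adipocyte samples lay above both mature samples for Ipcef1 and Sys1 and below them for Lcn8. The conditions overlapped for the other 7 genes. With 2 samples against 2, no exact permutation p under 0.333 is possible, so these separations are a description only. The Sys1 start with a RefSeq promoter window was another one, covered in no sample.

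Starts covered in both mature samples and in neither pre-adipocyte sample belonged to genes of diverse function. Nfam1, a signalling receptor of immune cells, had fold enrichments of 2.93 and 3.35 over its start, from 108 and 93 ChIP reads against 30 and 23 control reads. Chst3, a chondroitin sulfotransferase, had 2.93 and 2.83, and Npy4r, a receptor of the neuropeptide Y family, 2.79 and 2.87. The regions over these 3 starts were between 2200 and 4000 bp long. The covered Chst3 start was downstream of the one with its RefSeq promoter window, which was covered in no sample. Cbfa2t3, a transcriptional corepressor, had 2.80 and 2.72 from 478 and 606 ChIP reads, over a start upstream of the one with a RefSeq promoter window. The nearest pre-adipocyte regions lay 109 and 1109 bp from this start, the shortest distances among these 5 genes. The start with the RefSeq window had 7 CG dinucleotides in its 30 bases and was covered in no sample. Il20ra, a subunit of the interleukin-20 receptor, had 2.69 and 3.02. The nearest pre-adipocyte regions were 1738 to 38570 bp away from the starts of Nfam1, Chst3, Npy4r and Il20ra. Absence of a region in a pre-adipocyte sample means that none was called over the start. In the shallow replicate 2, the median region over a start held 70 ChIP reads.

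The reverse pattern, with both pre-adipocyte samples and no mature sample, was led by Trpv6, an epithelial calcium channel. Its fold enrichments were 2.77 and 3.22, from 236 and 53 ChIP reads against 71 and 30 control reads. The nearest mature regions lay 1196 and 605 bp from the Trpv6 start. Cldn6, a tight junction protein, had 2.53 and 2.73, with mature regions 1752 and 49 bp away, so that the second mature sample had a region beside this start. Cdhr2, a cadherin of microvilli, had 2.84 and 2.28, with the nearest mature regions 7340 and 1940 bp away. Efcab6, an EF-hand protein, had 2.24 and 2.41, and Kel, the Kell blood group antigen, 2.19 and 3.11. The nearest mature regions were 6252 to 37462 bp away from these last starts. Trpv6 and Kel lie close to each other on chromosome 6, with starts at 41636405 and 41704339.

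Most merged regions held the start of 1 gene (2443), 127 of 2, 20 of 3 and 5 of 4 genes. The region with the most Hox starts, chr15:102977001-103014800, contained the starts of Hoxc5, Hoxc6, Hoxc8 and Hoxc9. It was made of 5, 4, 2 and 4 separate regions in the samples, which covered 2, 2, 4 and 4 of the genes. Fold enrichment over it was 1.96, 2.61, 2.04 and 2.08. In chr16:10786601-10798200, the sperm chromatin genes Prm1, Prm2, Prm3 and Tnp2 were all covered in replicate 1 of pre-adipocytes, none in replicate 2 and 1 in each mature sample. In chr5:90761601-90812400, the chemokines Cxcl15, Cxcl3, Pf4 and Ppbp had 4, 2, 1 and 2 covered starts. Another region held 4 predicted genes, Gm10717 to Gm10720, on chromosome 9 and was called in replicate 2 of pre-adipocytes alone. Predicted symbols made up 194 of the 2609 genes.

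Adipogenic transcription factors had a covered start at a share close to that of all genes. Except for Klf15, fold enrichment lay below the sample's median over starts (1.74 and 1.78 in the mature samples). Of 24 genes, 4 had a covered start in any sample, namely Pparg, Gata3, Klf15 and Nr1h3, with 0, 0, 3 and 3 in the separate samples. The share (16.7%) stood beside 13.4% for all genes weighted by chromosome, or 7.20%, 2.63%, 6.78% and 6.29% in the separate samples, at which a list of 24 holds few genes in any sample. Pparg, the central regulator of adipogenesis, was covered at its most downstream annotated start, chr6 position 115422066, which is known as the start of the adipocyte isoform. The regions over it were 14400 and 11400 bp long and had fold enrichments of 1.16 and 1.27 in the mature samples, among the lowest given here. Gata3, which restrains adipogenesis, had 1.43 and 1.49 in the mature samples. Klf15, a factor of late adipogenesis, had 1.96 in mature replicate 1, and Nr1h3, the oxysterol receptor LXR alpha, 1.56 in mature replicate 2. The Klf15 start with a RefSeq promoter window was another one, covered in no sample. Starts of the other 20, Cebpa, Cebpb, Srebf1 and Ebf2 among them, were in no region. The background for both mature samples and no pre-adipocyte sample was 1.03% of genes, and no test was made on the list.

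Lipid storage and adipokine genes had 9 covered starts of 28 (32.1%, against 14.2% weighted by chromosome), with 4, 0, 3 and 6 in the samples. Agt, angiotensinogen, had fold enrichments of 1.76 in pre-adipocyte replicate 1 and 1.65 in mature replicate 2. Angptl4, an inhibitor of lipoprotein lipase, was covered in all but pre-adipocyte replicate 2, at 1.71, 1.47 and 1.599. Cd36, a fatty acid transporter, was covered in both mature samples, at 1.36 and 1.51. Adipoq (1.4995), Fabp4 (1.28) and Lpl (1.43), which encode adiponectin, a fatty acid binding protein and lipoprotein lipase, had a region over the start in mature replicate 2 and in no other sample. Regions nevertheless lay close to the Lpl start, at 91 bp in pre-adipocyte replicate 1 and 491 bp in mature replicate 1, and 736 bp from the Adipoq start in pre-adipocyte replicate 2. For Fabp4, the nearest regions of the other samples were 16425 to 26976 bp away. Lep, leptin, and Ucp1, the uncoupling protein of brown fat, were covered in pre-adipocyte replicate 1 alone, at 1.85 and 2.15. Mature regions lay 420 and 581 bp from the Lep start, and 3649 and 12552 bp from that of Ucp1. Acacb, an acetyl-CoA carboxylase, was covered in mature replicate 1 alone, at 1.497. None was covered in pre-adipocyte replicate 2, in which 3.04% of all genes weighted by chromosome were covered.

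Genes of pre-adipocytes and fibroblasts had 6 covered starts of 23 (26.1%, against 13.7% weighted by chromosome), with 6, 2, 1 and 2 in the samples. Dcn, the matrix proteoglycan decorin, was covered in both pre-adipocyte samples, at 1.30 and 1.33. Lum, lumican, was covered in all samples, at 1.54, 1.43, 4.58 and 1.53. The high value came from a region of 1000 bp with 45 ChIP reads and 8 control reads, so it is imprecise. Cd34, a progenitor marker, Mmp2, a gelatinase, and Sparc, a matrix protein, were covered in pre-adipocyte replicate 1 alone, at 1.15, 1.36 and 1.62. Mature replicate 2 had a region 91 bp from the Mmp2 start. The Sparc start with a RefSeq promoter window was another one, covered in no sample. Wnt10b, an inhibitor of adipogenesis, was covered in pre-adipocyte replicate 1 and mature replicate 2, at 1.74 and 2.16. The 6 genes were thus all covered in the deeper pre-adipocyte sample, and 4 of them in none of the mature samples. All genes weighted by chromosome had 7.15%, 2.71%, 7.03% and 6.67% in the samples. Of all genes with a covered start, 19.6% were covered in pre-adipocyte replicate 1 alone, 4.52% in replicate 2 alone and 2.61% in both of these alone. The counts of the list are small and were not tested.

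The study singled out 20 genes of its larger adipogenesis array by their change on a high fat diet. Of these 20, 5 had a covered start (25%, against 14.3% weighted by chromosome), with 4, 0, 1 and 2 in the samples. They were Acacb, Agt and Ucp1, given above, with Cdkn1a, an inhibitor of cyclin-dependent kinases, at 1.93 in pre-adipocyte replicate 1 and, over another of its starts, at 1.51 in mature replicate 2, and Wnt5b, at 1.26 in pre-adipocyte replicate 1. The Wnt5b start with a RefSeq promoter window was another one, covered in no sample. The starts of Fasn, Slc2a4, Retn, Sirt1, Sirt2, Ccnd1, Cdk4, Cdkn1b, E2f1, Egr2, Jun, Lmna, Bmp7, Angpt2 and Axin1 were in no region of any sample. Regions lay 52 bp from the Slc2a4 start in mature replicate 2, 962 bp from that of Angpt2 in mature replicate 1, and 909, 909, 309 and 309 bp from that of E2f1. A covered start is narrower than any region at a gene. The paper reports regions at Ucp1, Cdkn1a, Fasn and Slc2a4, inconsistent between its duplicates and not significantly different between the conditions. Its FDR limit was less strict than the 0.001 of the regions used here.

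Several developmental and tissue-restricted families had larger shares. No test was made on these or the following families. Of 39 Hox genes, the homeobox genes that pattern the body axis, 16 had a covered start (41.0%, against 20.99% weighted by chromosome), with 8, 6, 12 and 10 in the samples. On chromosome 15, 8 of 9 were covered, and on chromosome 2, 1 of 9. Hoxa9, Hoxc4, Hoxc5, Hoxc6 and Hoxc12 were covered in all samples. Hoxa9 had fold enrichments of 2.26, 2.49, 1.84 and 2.39, and Hoxc12 had 1.85, 2.16, 1.57 and 2.04. Wnt ligands had 8 of 19 (42.1%, against 16.6%), with 6, 2, 3 and 4. Wnt8b was covered in all but pre-adipocyte replicate 2, at 1.91, 2.29 and 2.29, Wnt1 in the same samples, at 1.38, 2.04 and 1.68, and Wnt16 in both pre-adipocyte samples, at 1.81 and 2.04. Wnt9b was covered in replicate 1 of both conditions, at 1.37 and 2.14, Wnt2 in pre-adipocyte replicate 2 alone, at 2.68, and Wnt7b in mature replicate 2 alone, at 1.68.

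Keratins and keratin-associated proteins, the structural proteins of epithelia and hair, had 48 of 106 (45.3%, against 19.4%), with 26, 14, 29 and 30. All but 1 of these were on chromosomes 11 and 15, where 25 of 48 and 22 of 24 were covered, and none of the 24 on chromosome 16 was. Krtap3-1 had 1.70, 3.20, 2.16 and 2.04, and Krtap1-5 had 1.56, 1.91, 1.73 and 1.92. Serpins, protease inhibitors, had 14 of 61 (23.0%, against 9.69%), with 5, 4, 9 and 6. Serpinb5 was covered in all samples, at 1.75, 2.13, 1.73 and 1.83. Solute carriers had 63 of 368 (17.1%, against 13.4%), with 31, 7, 36 and 24. Slc2a9, a urate transporter, was covered in all samples, at 2.48, 1.94, 2.04 and 2.61. So was Slc29a1, a nucleoside transporter, at 1.31, 2.37, 1.52 and 1.61. For Serpinb5, Slc2a9 and Slc29a1 the start with a RefSeq promoter window was another one, covered in no sample.

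Other clustered families had shares below or close to those of their chromosomes. Olfactory receptors had 63 of 1090 (5.78%, against 11.8%), with 46, 20, 31 and 27. They were spread unevenly, with 16 of 27 covered on chromosome 6 and 1 of 280 on chromosome 2. Olfr101, on chromosome 17, was covered in all samples, at 1.61, 1.65, 2.00 and 2.03, and Olfr96 on the same chromosome at 1.56, 1.79, 1.79 and 1.74. Olfr455, on chromosome 6, was also covered in all samples, at 1.39, 1.59, 1.38 and 1.56. Vomeronasal receptors had 13 of 326 (3.99%, against 9.30%), and zinc finger genes with Zfp symbols 20 of 385 (5.19%, against 11.3%). Zfp663 and Zfp786 were covered in all samples, at 1.602 to 2.29 for Zfp663 and 1.37 to 1.67 for Zfp786. Protocadherins, of which 88.2% lie on chromosome 18, had none of 68 (0%, against 5.80%). C-type lectins and killer lectin receptors (12 of 57, 21.1% against 19.2%), defensins (11 of 64, 17.2% against 18.1%) and cytochromes P450 (10 of 94, 10.6% against 12.3%) were close to their chromosomes. Cyp4f39, on chromosome 17, was covered in all samples, at 1.80, 2.27, 2.06 and 1.97.

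The last lists had shares below those of their chromosomes, with small counts in the cell cycle and housekeeping lists. Ribosomal protein genes had 2 of 69 (2.90%, against 11.6% weighted by chromosome), which were Rpl3 in mature replicate 2 and Rpl38 in mature replicate 1. Respiratory chain genes had 6 of 81 (7.41%, against 12.99%), with 2, 1, 3 and 0. Histone genes had 4 of 67 (5.97%, against 11.1%), all 4 of them in the mature samples. Cell cycle genes had 3 of 41 (7.32%, against 10.5%), namely Cdkn1a, Cdk15 and E2f6. Of 18 housekeeping genes, only Tfrc, the transferrin receptor, was covered, in pre-adipocyte replicate 1 at 1.42 (5.56%, against 14.2%).

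**Figure D5:**
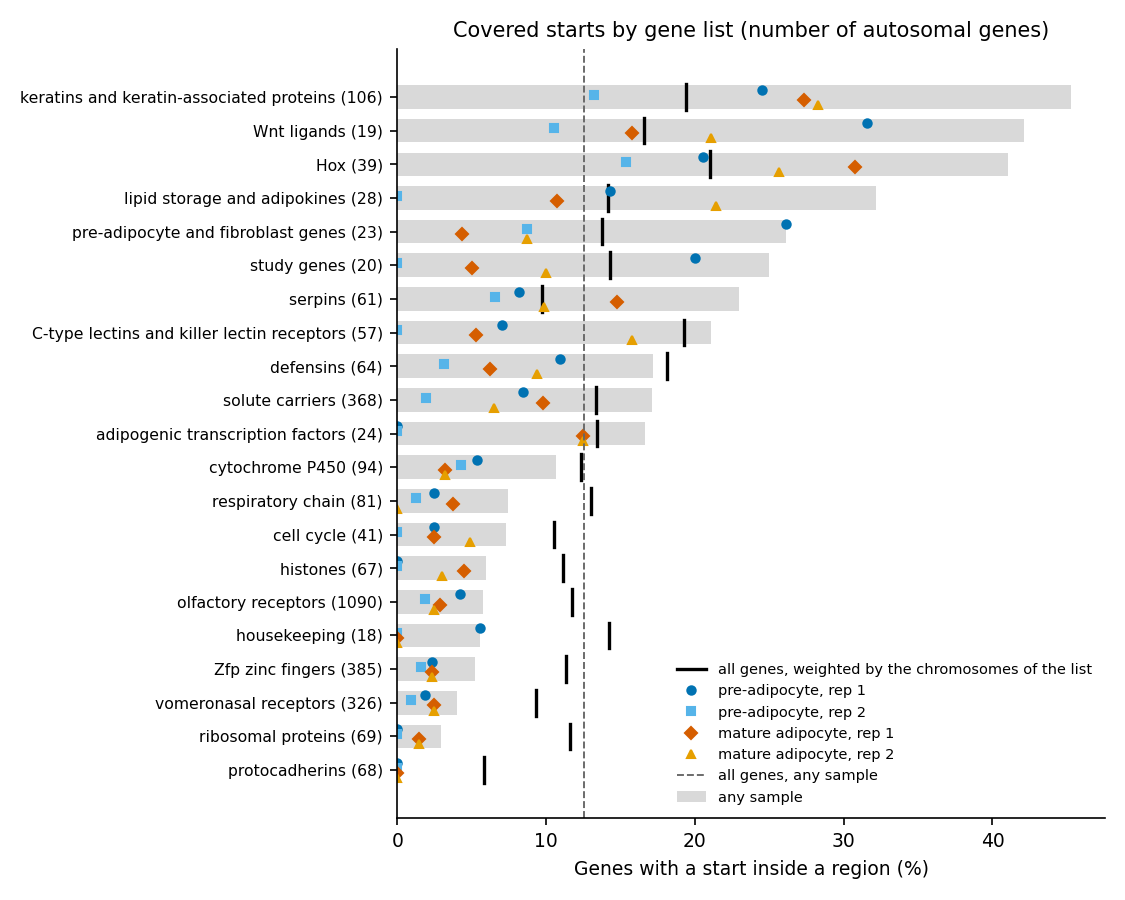
Genes with a covered start (%, horizontal axis) for each gene list (number of autosomal genes in brackets). Grey bars show any sample, points the separate samples, the black mark the share of all genes weighted by the chromosomes of the list, and the dashed line the 12.6% of all genes. Keratins, Wnt ligands and Hox genes have the longest bars, and ribosomal proteins and protocadherins the shortest.

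Finally, ChIP counts of the 1092 regions over starts that were called in all samples were compared between conditions with edgeR, fitted on all 12857 merged regions called in every sample. Reads were counted within each sample's own regions, with an offset for the length that these covered. The comparison is thus of read density inside called regions, and not of how far the regions extend. This density differed little. The log2 fold change of mature over pre-adipocytes had a median of -0.01, and 99.9% of the regions were within 0.5. Past an adjusted p of 0.05 (edgeR, Benjamini-Hochberg) there was 1 region over starts, which was higher in pre-adipocytes. Of all regions tested, 0.0856% passed in either direction, with 0.0778% above and 0.00778% below in the mature samples. At an unadjusted p under 0.05 there were 121 (11.1%, against 9.15% of all regions), of which 57 were higher in mature adipocytes.

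The called region, chr6:40570601-40592000, held the starts of Clec5a, a lectin of myeloid cells, and of the olfactory receptor Olfr460. Its ChIP reads per kb were 39.7, 23.5, 31.8 and 34.1. Fold enrichment was 1.90, 2.37, 1.43 and 1.43, so that both pre-adipocyte samples lay above both mature samples. The log2 fold change was -0.46 (SE 0.0867, edgeR adjusted p = 0.0131), and -1.14 without the length offset. The call was lost without a length offset (edgeR adjusted p = 0.236), without either mature sample (edgeR adjusted p = 0.564 and 0.104) and with library sizes relative to the control (edgeR adjusted p = 1.00), always with the same direction. Olfr460 was covered by its own region in pre-adipocyte replicate 1, and Clec5a in both mature samples.

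Other regions with small p did not pass. The region of Ephb6, a kinase-dead ephrin receptor, had fold enrichments of 2.01, 2.42, 1.85 and 1.84 and a log2 fold change of -0.29 (edgeR adjusted p = 0.0511, and 0.0271 with the replicate number as a block). That of Mymx, a muscle fusion peptide, had 1.75, 2.29, 1.59 and 1.40 and -0.38 (edgeR adjusted p = 0.0540, and 0.0271 with the block). In the other direction, the region of the homeobox gene Alx4 had 1.95, 2.17, 2.63 and 2.72 and a log2 fold change of 0.26 (edgeR adjusted p = 0.128). Nipal2, a member of a family of magnesium transporters, had 1.86, 2.46, 2.45 and 2.53 (0.26, edgeR adjusted p = 0.138), and Fbln7, a matrix fibulin, 1.56, 1.82, 2.10 and 2.23 (0.32, edgeR adjusted p = 0.173). In Alx4 and Fbln7 both mature samples lay above both pre-adipocyte samples, and in Ephb6 and Mymx below. Without the length offset the log2 fold changes were 1.46 for Alx4, 0.62 for Nipal2 and 0.28 for Fbln7. They were -0.63 for Ephb6 and -0.24 for Mymx.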

How the data were processed

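Chromatin bound by macroH2A1.2-GFP in 3T3-L1 cells was pulled down with an antibody to GFP and sequenced. The authors demultiplexed reads with bcl2fastq 2.16, aligned them to mm10 with Bowtie 1.1.2, removed duplicates with Picard and called regions in each sample with SICER 1.1 against a library made without antibody. The deposited columns hold the raw count of ChIP reads and of control reads, a p-value, a false discovery rate (a p-value adjusted by the authors) and the fold enrichment, a ratio scaled by the authors for library size. The largest FDR in the tables was 0.001, below the limit stated in the methods. The control has no table of its own here. The methods name mouse adipose tissue for the immunoprecipitation, whereas the labels and results name 3T3-L1 cells. Groups follow the titles. The description fields of both mature samples name the state before differentiation, and that of the control names the anti-GFP antibody.

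Regions of the 4 tables were merged when they shared 1 bp, and compared with the starts of protein-coding transcripts of GENCODE M21 basic, which uses mm10. Summaries of the samples were compared between conditions with exact permutation tests. Read counts of merged regions present in every sample were tested with edgeR 4.0.16 (quasi-likelihood, TMM on counts adjusted for the length covered, Benjamini-Hochberg) and, as an alternative, DESeq2 1.42.0, in R 4.3.3. In counts simulated with the same dispersion for every region, 200 of 12857 regions were changed. Of these, edgeR recovered 2.5% at a change of 0.25 on the log2 scale, 76.5% at 0.5 and 100% at 1. Among the unchanged regions it made 0, 12 and 11 false calls. Python 3.11.15, numpy 2.4.6, pandas 2.3.3 and scipy 1.17.1 were used.

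Named genes were the 20 that the study singled out from its adipogenesis array by their change on a high fat diet. Next came the 10 with the highest lowest fold enrichment among starts inside a region of all 4 samples. At least 20 control reads were required in each sample. Also named were the 5 by that measure in each single-condition pattern and up to 3 per gene list. The rest were the 5 regions with the most genes and the regions chosen by edgeR. The latter were those past an adjusted p of 0.05 or with the 3 smallest p in each direction. Predicted genes were counted and not named in these rankings. The genes of 1 of these regions are not reported here. Other covered members of the shorter lists are named where their counts are given. The members and gene lists were chosen with earlier results of these data known. RefSeq promoter windows matched 73.8% of the genes with a covered start, so a composition check on them is void, and base composition was taken from the first 200 transcribed bases instead, available for 99.6% of covered starts. Alternatives changed the FDR, fold enrichment, starts, position of the start, flank, normalization, length offset, count filter, replicate block and samples.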

Additional observations from a re-analysis of the deposited data

How the results depend on the processing

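The difference between conditions in the number of genes with a covered start (337.5 more in mature adipocytes) kept its direction in 8 of 9 alternatives. Leaving out each replicate gave -79 to 754, and it turned without replicate 2 of pre-adipocytes. The ratio of coverage at the start to its flanks (0.0178 higher in mature) ranged from -0.0299 to 0.0655 when each replicate was left out, and turned without the same replicate. The difference in median fold enrichment over starts (-0.00593) turned to 0.0270 with regions of a fold enrichment of at least 2, and ranged from -0.169 to 0.158 when each replicate was left out. With 2 samples in each condition no p under 0.333 is possible, and none was computed with a replicate left out, so these settings show directions only.

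The number of merged regions over starts (2595) fell to 918 with a fold enrichment of at least 2. The share of them called in all samples (42.1%) was 36.7% at an FDR of at most 1e-05, 15.1% with a fold enrichment of at least 2 and 45.5% with starts at least 500 bp inside, and 42.95% to 54.97% when each replicate was left out.

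The edgeR count of 1 region over starts became 0 with library sizes relative to the control (5 at an unadjusted p under 0.05) and 0 with DESeq2 (23 at an unadjusted p under 0.05). DESeq2 gave no adjusted p to 994 of the 1092 regions, the region of Clec5a and Olfr460 among them (log2 fold change -0.46, unadjusted p from DESeq2 0.000991), so this 0 does not speak to that region. Leaving out each replicate gave 0 to 28, with 28 without replicate 2 of pre-adipocytes, 9 without replicate 1 of pre-adipocytes and 0 (78 at an unadjusted p under 0.05) without replicate 2 of mature adipocytes. Without a length offset the 1 region called was higher in mature adipocytes. With the replicate number as a block the count was 4, all higher in pre-adipocytes. Deviations of regions from their condition means correlated at 0.00742 between same-numbered samples. That check takes a single deviation per condition at each region, so it does not settle whether same-numbered samples shared a culture or batch. The causes of these changes were not tested. Library totals were not used here, and no intervals were computed from them.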
